A study of Mus musculus with 6 samples.

Results

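The genes described here are 10 central members of the NRF2 system, the oxidative and electrophile stress defence of mammalian cells, in the mRNA libraries of a mouse cell line exposed to bisphenol A (BPA). They were taken by symbol from the mRNA table, and all 10 were found among its 22127 listed genes. They are the transcription factor Nfe2l2 (NRF2 itself), its inhibitor Keap1, the autophagy receptor Sqstm1, and the effectors Hmox1, Nqo1, Txnrd1, Srxn1, Prdx1, Fth1 and Ftl1. Each had at least 1402 reads in both libraries together, so all 10 passed the minimum of 10 reads set for a comparison.

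NRF2 is a transcription factor that is made continuously and destroyed almost as fast. KEAP1 binds it in the cytosol and presents it to a cullin 3 ubiquitin ligase, and electrophiles or oxidants that modify cysteines of KEAP1 stop this, so that NRF2 builds up, pairs with a small MAF protein and binds antioxidant response elements in its target genes. Because control runs through protein stability, the mRNA of Nfe2l2 is not a measure of NRF2 activity. SQSTM1, also called p62, can sequester KEAP1 and is itself encoded by an NRF2 target gene. In the testis the system is known for protecting germ cells from oxidative damage.

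The cells were GC-2 spd(ts), a line derived from mouse spermatocytes by introducing a viral T antigen together with p53 in a temperature-sensitive form, and grown at 37 °C. Both cultures were held 12 h without serum. They then received medium with 10% serum for 48 h, with 0.1% dimethyl sulfoxide in the control culture and 120 µM BPA, dissolved in dimethyl sulfoxide, in the exposed culture. BPA is a phenolic monomer of polycarbonate plastic. RNA of each culture was split among mRNA, microRNA (miRNA) and circular RNA (circRNA) sequencing, with 1 library of each kind per culture.

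With 1 library per group no difference has a replicate check and no test between conditions was possible, and each ratio also holds whatever else differed between these cultures. Intervals cover counting error only. Depth was alike, at 32312872 reads for the control mRNA library and 33071378 for the exposed one. Of 17 fixed markers of male germ cells and spermatocytes, values were read for 4. Hspa2 had 411 and 588 reads, Tex14 6 and 9, the meiotic axis gene Sycp3 6 and 0, and the germ cell helicase Ddx4 0 and 9, and the other 13 were not analysed here. Of these 4, Tex14, Sycp3 and Ddx4 were therefore at or near 0 in both libraries, and Hspa2 was not. Of the peritubular and fibroblast markers 7 were compared. All 7 were below 0 on the log2 ratio scale, as were 8121 of all 16870 compared genes. Their summed share of reads was 0.425% in control and 0.206% after BPA. Myh11 and Dcn of that list, with 0 and 9 and with 0 and 8 reads, had too few reads to be compared. Compared markers of Sertoli cells (8 genes) made up 0.00813% and 0.00799%, of Leydig cells (2 genes) 0.00557% and 0.00705%, and of macrophages and leukocytes (5 genes) 0.000997% and 0.00153%. Most Sertoli marker reads came from Gata4, with 1959 and 1795, whereas Amh had 10 and 33. Most Leydig marker reads came from Nr5a1, with 1731 and 2242, beside 69 and 90 for Star. The leukocyte gene Ptprc had 3 and 0 reads, and of the erythroid list only Alas2 was read, with 11 and 12 reads. The part of the fibroblast marker shift in the results below was not tested. In bulk RNA, fewer cells of a type and less RNA per cell cannot be told apart.

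Antioxidant response elements lie in the promoters or enhancers of NRF2 targets, so the stretches just upstream of the members' start sites were read from RefSeq (GRCm38.p6). The table used covers 250 bases before and 50 after each start and matched 9 of the 10 genes, with 12 start sites. Hmox1 did not match. The core of the element, TGACNNNGC on either strand, was found in 4 of the 12 windows, those of Nfe2l2, Prdx1, Srxn1 and 1 of the Txnrd1 starts, and in 12.4% of all 32851 promoter windows of that length. The related AP-1 element TGACTCA, on either strand, was found in 2 windows, of Prdx1 and Srxn1, and in 5.2% of all windows. The windows below are shown because they hold these letters, in capitals, upstream of genes whose mRNA is compared next. Prdx1 has AP-1 letters within the printed core, beginning at base -131 from the start site, and a second match beginning at -237, outside the printed stretch. In Srxn1 the capitals are the AP-1 letters alone, since its core match begins at base 29 from the start site, inside the transcript. Only TGACNNNGC was taken as the core, so variant forms of the element, upstream of Srxn1 or elsewhere, were not looked for. These are matches of letters, not bound sites.
Nfe2l2, chr2:75704854-75704913, minus strand: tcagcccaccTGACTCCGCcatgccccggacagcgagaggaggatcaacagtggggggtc
Prdx1, chr4:116685439-116685498, plus strand: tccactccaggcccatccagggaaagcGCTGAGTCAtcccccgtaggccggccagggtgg
Txnrd1, chr10:82859086-82859145, plus strand: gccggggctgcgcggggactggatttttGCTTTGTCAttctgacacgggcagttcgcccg
Srxn1, chr2:152105404-152105503, plus strand: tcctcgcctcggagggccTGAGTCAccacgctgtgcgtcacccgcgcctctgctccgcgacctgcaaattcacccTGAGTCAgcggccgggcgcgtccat

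All 10 genes had more normalised reads in the BPA library than in control, from 1.11-fold for Prdx1 to 2.57-fold for Sqstm1. Their median ratio was 1.66-fold, or 0.73 on the log2 scale, where the median of all 16870 compared genes was 0.02. Sqstm1, Nqo1 and Hmox1 were at least 2-fold higher and no member was 2-fold lower. Among all compared genes 6.88% had a ratio of 2 or more, and 4.61% were lower by as much. Many of those had few reads. Of the 8628 genes with at least 1000 reads in both libraries together, a depth that all 10 members reach, 1.36% were past 2-fold upwards and 0.985% downwards. A ratio above 0 by itself is common, held by 51.9% of compared genes and 48.4% of those with at least 1000 reads. The counting interval lay wholly above 0 for all 10, as it did for 28.2% of compared genes and for 33.7% of those with at least 1000 reads. The 10 genes accounted for 131704 control and 237605 BPA reads, or 0.408% and 0.718% of each library. The direction of all 10 was the same with scaling by library total and by TMM. As the members were chosen with earlier results of these data known, their shared direction is no independent result.

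**Figure D1:**
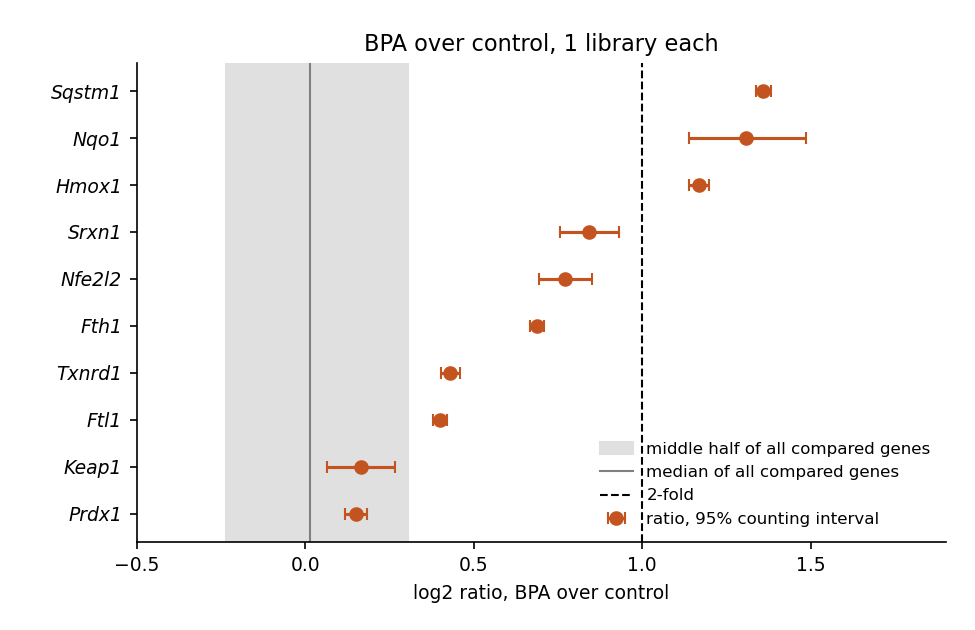
Log2 ratio of BPA over control for each of the 10 genes (points, 1 library per group) with its 95% counting interval (bars); the grey band is the interquartile range and the grey line the median of all 16870 compared genes, and the dashed line marks 2-fold. Sqstm1, Nqo1 and Hmox1 lie beyond 2-fold, and Keap1 and Prdx1 lie inside the grey band.

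Of the regulators, Nfe2l2 (chromosome 2, 75675513 to 75704641) had 2053 control reads and 3789 BPA reads. Its log2 ratio was 0.77 (95% counting interval 0.69 to 0.85), short of 2-fold. Keap1, the adaptor that targets NRF2 for destruction (chromosome 9, 21229730 to 21239361), had 1466 and 1776 reads and a log2 ratio of 0.17 (0.06 to 0.27). The factor and its inhibitor therefore differed unequally between the libraries. Within a library, where scaling plays no part, there were 1.40 Nfe2l2 reads per Keap1 read in control and 2.13 with BPA, a log2 change of 0.61 (0.48 to 0.73). Keap1 shares exon bases with the antisense gene Gm16754, which had 54 and 78 reads, few beside those of Keap1.

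Sqstm1 (chromosome 11, 50199366 to 50210827), which encodes the receptor that brings ubiquitinated cargo and KEAP1 into autophagosomes, had the highest ratio of the 10. Its 20364 control and 56438 BPA reads gave a log2 ratio of 1.36 (1.34 to 1.38). Of the 8628 genes with at least 1000 reads, 49 had a higher ratio. It gained the most normalised reads of the 10, from 21167 to 54297. An antisense neighbour that shares exon bases with it, Mrnip, had 93 and 161 reads. Sqstm1 is also known as a target of other stress regulators, among them ATF4.

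Hmox1 and Nqo1, both widely used readouts of NRF2, were the other members past 2-fold. Hmox1 (chromosome 8, 75093621 to 75100589), the inducible heme oxygenase that splits heme into biliverdin, iron and carbon monoxide, had 13135 and 31917 reads and a log2 ratio of 1.17 (1.14 to 1.20). Its constitutive counterpart Hmox2 was at 0.03 (-0.06 to 0.12) from 1780 and 1963 reads, so the control library held 7.38 and the BPA library 16.3 Hmox1 reads per Hmox2 read. Nqo1 (chromosome 8, 107388225 to 107403206), which reduces quinones by 2 electrons and so avoids semiquinone radicals, had the fewest reads of the 10, with 381 and 1021. Its ratio of 1.31 (1.14 to 1.48) therefore has the widest interval, and that interval overlaps those of both Sqstm1 and Hmox1, so these 3 cannot all be ordered by counting error alone. Its paralog Nqo2 was at 0.07, and Nqo1 reads per Nqo2 read were 0.314 in control and 0.741 with BPA. The paralogs were chosen for comparison after their values were seen.

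The thiol enzymes were spread over a wide range. Srxn1 (chromosome 2, 152105516 to 152111376), sulfiredoxin, which repairs over-oxidised peroxiredoxins, had 1572 and 3048 reads and a log2 ratio of 0.84 (0.76 to 0.93). Txnrd1 (chromosome 10, 82833951 to 82897712), the cytosolic selenoenzyme that recycles thioredoxin with NADPH, had 17021 and 24779 reads and 0.43 (0.40 to 0.46). Prdx1 (chromosome 4, 116685544 to 116700822), the peroxide-reducing substrate of both systems, had 13877 and 16638 reads and 0.15 (0.12 to 0.18), the smallest ratio of the 10. The repair enzyme and its substrate thus differed unequally, with 0.113 Srxn1 reads per Prdx1 read in control and 0.183 with BPA, a log2 change of 0.69 (0.60 to 0.79). For Txnrd1 against its mitochondrial counterpart Txnrd2, with 361 and 463 reads, the change was 0.18 (-0.02 to 0.38), which includes equality.

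Both ferritin subunits were higher in the BPA library. Ferritin is a hollow shell of heavy and light chains that stores iron as a mineral, with the heavy chain oxidising it on entry. Fth1, the heavy chain (chromosome 19, 9980598 to 9985098), had 31886 and 55509 reads and a log2 ratio of 0.69 (0.67 to 0.71). Ftl1, the light chain (chromosome 7, 45457944 to 45459884), had 29949 and 42690 reads and 0.40 (0.38 to 0.42). Fth1 reads per Ftl1 read were 1.06 in control and 1.30 with BPA, a log2 change of 0.29 (0.26 to 0.32). Their intervals do not overlap.

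The reads of Ftl1 are uncertain, because other entries overlap it or are named as its copies. Copies were looked for by symbol, for Fth1, Ftl1, Prdx1, Nqo1, Hmox1 and Txnrd1 only, and sequences were not compared. The annotated miRNA gene Gm22133 lies within an exon of Ftl1 on the same strand and had 5358 and 7536 reads of its own in the mRNA table. The copies Ftl1-ps1, Ftl2-ps and Ftl1-ps2 had 709 and 984, 248 and 373, and 71 and 82 reads. Summed over Ftl1, Gm22133 and the 3 copies, there were 36335 and 51665 reads and a log2 ratio of 0.40 (0.38 to 0.42), the same as for Ftl1 alone to 2 decimals. Gm10252, antisense to Ftl1, had 93 and 212 reads. For Fth1, the copy Fth-ps2 had 0 and 2 reads.

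**Figure D2:**
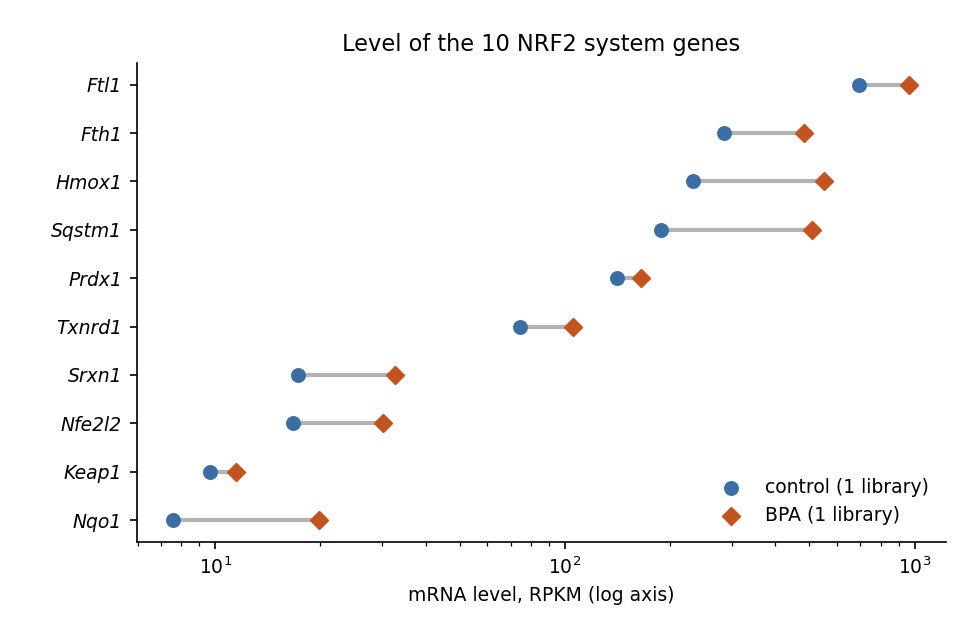
Level of each of the 10 mRNAs in reads per kilobase of exon scaled to the library total (RPKM, log axis), in the control library (circles) and the BPA library (diamonds), 1 library each. Ftl1 is highest in both, and Nqo1 and Keap1 exchange the last place.

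Levels between genes were compared per length, as reads per kilobase of annotated exon scaled to the library total (RPKM). On that scale the 10 mRNAs spanned from 7.59 for Nqo1 to 692 for Ftl1 in control and from 11.4 for Keap1 to 963 for Ftl1 with BPA. The order in control was Ftl1, Fth1 at 284, Hmox1 at 232, Sqstm1 at 188, Prdx1 at 141, Txnrd1 at 74.3, Srxn1 at 17.3, Nfe2l2 at 16.7, Keap1 at 9.67 and Nqo1. With BPA, Hmox1 at 551 and Sqstm1 at 509 stood above Fth1 at 484, and Nqo1 at 19.9 stood above Keap1. The ranks of the other 5, Ftl1, Prdx1, Txnrd1, Srxn1 and Nfe2l2, were the same in both libraries. Srxn1 and Nfe2l2 were close in both libraries (32.7 and 30.2 with BPA). The exon length counts every annotated exon of a gene, so levels of genes with long unused exons are understated.

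**Figure D3:**
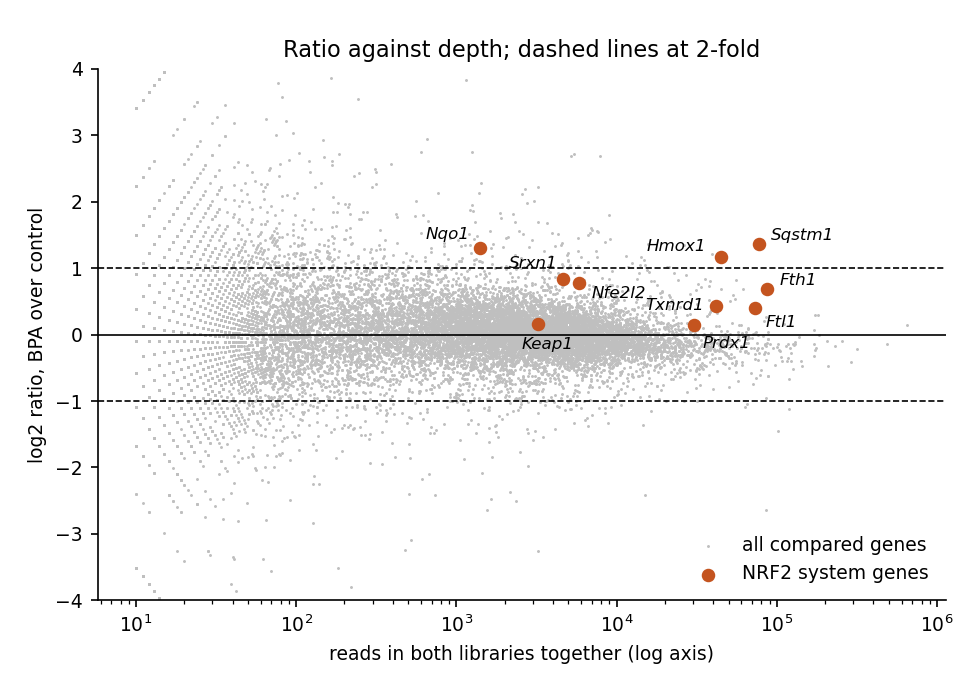
Log2 ratio of BPA over control against the reads of both libraries together (log axis) for all 16870 compared genes (grey) and the 10 NRF2 system genes (orange), with dashed lines at 2-fold; 119 genes lie beyond 4 on the log2 scale and outside the plot. The spread of the grey points narrows with depth, and all 10 genes lie above 0 at depths of 1402 to 87395 reads.

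The authors' deposited table gives each gene a p-value, from a test that the sources used here do not name. Since each group had 1 library, these values do not rank the members by how well their ratios are supported. Its p was 0.0371 for Nfe2l2 and 0.0441 for Fth1, and 0.30 to 0.31 for Sqstm1, Nqo1, Hmox1 and Srxn1, which had larger ratios. The other 4 had p from 0.101 for Txnrd1 to 0.429 for Keap1, and the adjusted value in the authors' deposited table was 0.961 for all 10.

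Other targets of NRF2 outside the 10 were less uniform. Members and lists were chosen with earlier results of these data known, so this contrast is a description and no test. Of 35 listed targets 33 were compared, of which 3 were higher by 2-fold or more and the other 30 lay within 2-fold. Past 2-fold upwards were 6.88% of all compared genes and 1.36% of those with at least 1000 reads. The compared targets ranged from 17 to 24619 reads in both libraries together, so neither share is of like depth. The targets' median log2 ratio was 0.22, and 25 of 33 were above 0, beside 51.9% of all compared genes. The glucuronosyltransferase Ugt1a6a, which conjugates phenols, was at 2.22 (1.79 to 2.71) from 49 and 250 reads. Since Ugt1a genes share exons with each other, its reads are uncertain. Slc7a11, the cystine importer that feeds glutathione synthesis, had 565 and 2474 reads and 2.02 (1.89 to 2.15). Blvrb, a biliverdin reductase, had 316 and 764 reads and 1.16 (0.97 to 1.36). The target with the most reads, the thioredoxin Txn1, had 12228 and 12391 and a ratio of -0.09 (-0.13 to -0.06), against 0.43 for its reductase Txnrd1. Slc7a11 is also a known ATF4 target.

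Around NRF2 on DNA, none of 8 compared partners and competitors was 2-fold different, and their median was 0.21. Being within 2-fold is common, held by 14932 of all 16870 compared genes and 8426 of the 8628 with at least 1000 reads. The small MAF partner Mafg had 4465 and 5944 reads and a log2 ratio of 0.30 (0.24 to 0.36). Nfe2l1, the related factor that governs proteasome genes, was the highest at 0.50 and Bach2, a repressor of the same elements, the lowest at -0.55 (-0.70 to -0.41). Bach1, the repressor best known for holding Hmox1 down, had 1126 and 1051 reads and -0.21 (-0.33 to -0.09), and is named after its value was seen. Nfe2l2 reads per Bach1 read were 1.82 in control and 3.61 with BPA. The machinery that destroys NRF2 was also within 2-fold in all 18 genes compared, Keap1 included, as most compared genes were, with a median of 0.07. Vcp, the segregase with the most reads of that list, was at 0.17, the deubiquitinase Usp11 at 0.93 from 149 and 307 reads, and Cand1, which exchanges cullin adaptors, at -0.22.

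The peroxiredoxin and thioredoxin genes beyond the members did not share their direction. Of 16 such genes none was 2-fold different, and neither were 14932 of all 16870 compared genes. On the deposited scale 4 were above 0 and 12 below, with a median of -0.10. On that scale 51.9% of all compared genes and 48.4% of those with at least 1000 reads were above 0. With scaling by library total 7 of the 16 were above 0 and 9 below. The other peroxiredoxins are named after their values were seen. Prdx2 was at -0.18, Prdx5 at -0.10, and Prdx3, Prdx4 and Prdx6 lay between -0.04 and -0.03, values that turn to 0.04 to 0.05 with scaling by library total. Prdx1, at 0.15, was the highest of the 6 peroxiredoxins. Srxn1 was the highest of the whole list and the thioredoxin inhibitor Txnip the lowest, with 3037 and 2363 reads and -0.47 (-0.55 to -0.40).

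Among other iron genes, ferritin stood at 1 end and the transferrin receptor at the other. Of the 14 compared iron genes beside ferritin none was 2-fold different, like 14932 of all 16870 compared genes, and the median was -0.14. Tfrc, which imports transferrin-bound iron, had 24685 control and 15055 BPA reads, which is a log2 ratio of -0.82 (-0.85 to -0.80). Fth1 reads per Tfrc read were thus 1.29 in control and 3.69 with BPA, a log2 change of 1.51 (1.48 to 1.55). Fth1 and Tfrc had the highest and lowest ratios of the compared iron genes, so no pair of these genes gives a larger change. As background, iron-regulatory proteins act on both mRNAs, holding back ferritin translation and protecting the Tfrc message from decay when iron is scarce. Of the 18 compared genes of heme synthesis, transport and breakdown, 15 were above 0 and 2, Hmox1 and Blvrb, at least 2-fold higher, with a median of 0.26. Without Hmox1 it was 1 of 17, with a median of 0.22, beside 6.88% of all compared genes past 2-fold upwards and 51.9% above 0. Of the genes with at least 1000 reads, 1.36% were past 2-fold upwards and 48.4% above 0.

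Of 15 autophagy receptors and LC3 proteins Sqstm1 was the only 1 past 2-fold, the median was 0.24 and 11 were above 0, beside 51.9% of all compared genes. Next came Calcoco1 at 0.80 and Nbr1, both named after their values were seen. Nbr1, the receptor most related to SQSTM1, had 2556 and 4610 reads and a log2 ratio of 0.74 (0.67 to 0.81), and there were 7.97 Sqstm1 reads per Nbr1 read in control and 12.2 with BPA. Of 19 other antioxidant enzymes and sestrins 3 were past 2-fold, all of them higher with BPA, and the median was 0.09. The share past 2-fold upwards was 6.88% of all compared genes and 1.36% of those with at least 1000 reads. The 3 were Sesn3 at 2.13 (1.94 to 2.35), Sesn2 at 1.67 (1.56 to 1.79) and the glutathione peroxidase Gpx1 at 1.58, the last with 1656 and 5335 reads. SESN2 can promote KEAP1 degradation through SQSTM1, and both sestrins are also targets of p53, FoxO or ATF4. Gpx4, which reduces lipid peroxides and had the most reads of that list, was at 0.18.

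**Figure D4:**
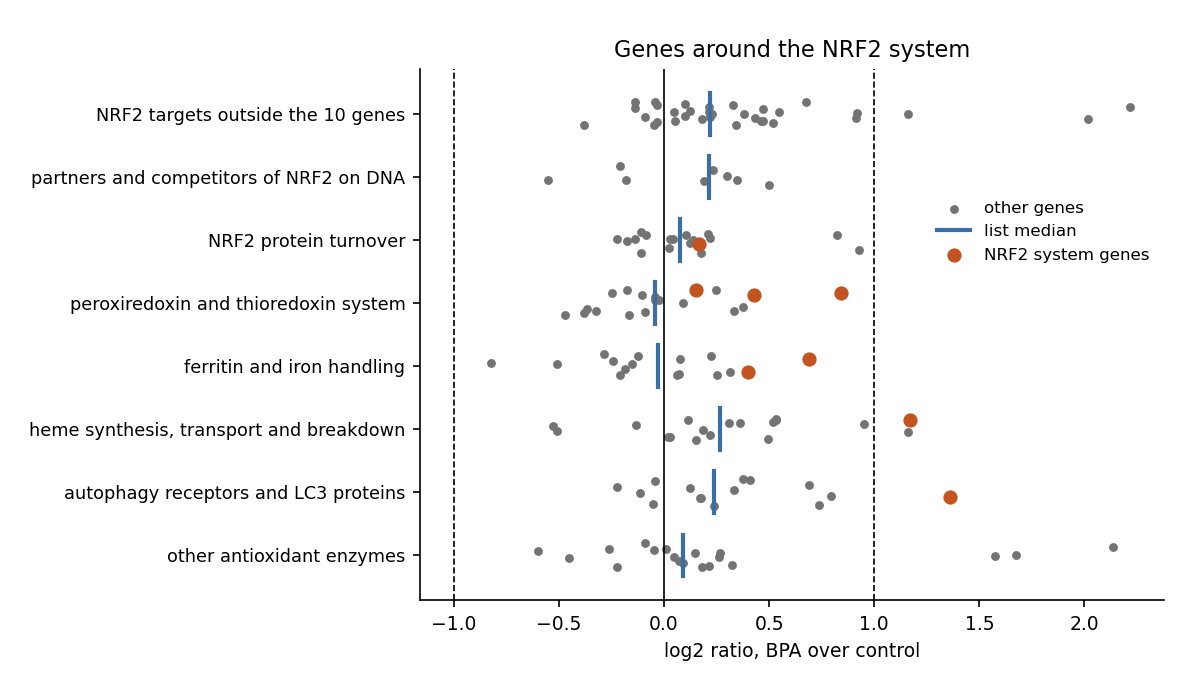
Log2 ratio of BPA over control for the compared genes of 8 lists around the NRF2 system (grey points, one per gene; orange points are among the 10 genes described here; blue bars are list medians; dashed lines mark 2-fold; vertical scatter within a list has no meaning). In the lists of iron, peroxiredoxin and autophagy genes the orange points lie at the upper end, apart from Prdx1.

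The circRNA libraries of the same RNA gave little on the members. Of the 10 genes only Prdx1 had a circRNA, spliced between annotated exon boundaries at chromosome 4, 116687407 to 116693847, with 0 back-splice events of 12909 in control and 3 of 17586 with BPA. A count of 0 allows up to 0.0232% of the control events, more than the share of those 3, so the difference was not detectable at this depth. Over the members and the wider lists, 47 genes hosted 113 circRNAs, with 132 control events (1.02% of the library) and 196 BPA events (1.11%), so their share was close in both. Of these hosts 33 had more events with BPA, 13 fewer and 1 as many. These counts are not scaled, and the BPA library held more events in all, 17586 against 12909. The same count over all circRNA hosts was not made, so it is no result about these hosts. Named after their values were seen, Slc7a11 had 0 and 8 events and Gsk3b 1 and 11, whereas Me1 had 14 and 2 and Pcbp2 11 and 4.

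Of 14 miRNAs described elsewhere as acting on Nfe2l2, Keap1, Bach1 or Hmox1, 11 had a row and 7 had at least 10 reads in both libraries together. Those with the most reads are shown with the seed, bases 2 to 8, in capitals (RefSeq, GRCm38.p6). The first 2, described as acting on Nfe2l2, share a seed, the next is described for Keap1 and the last for Bach1.
miR-27a-3p: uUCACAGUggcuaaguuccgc
miR-27b-3p: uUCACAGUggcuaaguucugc
miR-7a-5p: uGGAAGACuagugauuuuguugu
miR-155-5p: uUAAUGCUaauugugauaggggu
Their size of change depended on the scaling, because the share of the total and the TMM scale differ by 1.68 on the log2 scale in the median miRNA. On the TMM scale miR-27a-3p, with 3365 and 15027 reads, was at 0.66 (0.61 to 0.72) and miR-27b-3p, with 7697 and 27826, at 0.36 (0.32 to 0.39). miR-155-5p, with 424 and 1736 reads, was at 0.54 (0.38 to 0.69), and miR-7a-5p, with 26568 and 65333, at -0.20 (-0.22 to -0.18). By share of the total all 4 were higher with BPA, at 2.34, 2.04, 2.22 and 1.48. On the TMM scale 1 of the 7 was past 2-fold, miR-142a-5p from 1 and 16 reads with an interval that includes equality, beside 12.3% of all 464 compared miRNAs at least 2-fold higher. With 5 reads added in place of 0.5 it was at 0.31, and none of the 7 was past 2-fold. By library total all 7 were, beside 78% of all.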

How the data were processed

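Per the submitters' processing notes, STAR and StringTie were named for the mRNA libraries, STAR for circRNA and Bowtie 1.1.0 for miRNA, with the builds GRCm38 and mm10. The sources used here do not give the counter, annotation release, strandedness or filters. As deposited, mRNA values are log2 of 1 plus scaled reads, and 100% of them became whole reads within a tolerance of 0.001 when divided by 1 step per library (1.04 and 0.962). The deposited circRNA log2 values were read as events with a step of 2, an assumption, and the deposited miRNA values were read counts. TPM columns the authors had added were not used, and p-values are quoted only from the authors' deposited table.

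Ratios are BPA over control on the log2 scale of the authors' scaling with a pseudocount of 1, which understates changes of low genes. Genes with at least 10 reads in both libraries together were compared and a ratio of 2 in either direction was counted. Exact conditional binomial (Clopper-Pearson) 95% intervals (SciPy 1.17.1) and, for ratios of 2 genes, normal intervals of the log ratio cover counting error only, since reads without molecular identifiers are not independent molecules. miRNA ratios used TMM factors (edgeR 4.0.16, R 4.3.3) with 0.5 reads added. The ratio and interval code was tested on simulated counts. Exon lengths, positions and overlaps came from GENCODE M21 (GRCm38).

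Groups came from the sample titles. The members and lists were chosen with earlier results of these data known. All 10 members were named, and of each list the genes past 2-fold (up to 6) whose higher library held at least 100 reads, the gene with the most reads and, with none past 2-fold, the highest and lowest. Genes named outside this rule are marked as such. The design foresaw no test, as each group had 1 library. Alternatives were other scalings, a pseudocount of 5, other filters and a fold of 1.5. The background of genes with at least 1000 reads was chosen after seeing the data.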

Additional observations from a re-analysis of the deposited data

How the results depend on the processing

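No paired analysis was possible because each group had 1 library. With TMM scaling and with a pseudocount of 5 no count of mRNA genes moved by over 1.5 times. Nor did any median move by more than the median counting error of the single genes in its list. That is an allowance for 1 gene, not the error of a list median. Scaling by library total raised the median of all compared genes by 0.08. It put the members' median at 0.81 and that of NRF2 protein turnover at 0.15 (with 1 gene then 2-fold higher), of autophagy receptors at 0.32 and of the peroxiredoxin and thioredoxin list at 0.0365, where the deposited scale gave -0.04. With no filter beyond 1 read, 1 partner or competitor of NRF2 and 2 iron genes were counted as 2-fold higher, from at most 6 reads, the iron list's median was 0.061 against -0.03, and 2978 and 2381 of all genes were 2-fold higher and lower. These were 440 and 277 with at least 50 reads, and 117 and 85 with at least 1000. At a fold of 1.5, counts of higher genes were 6 of the 10 members, 6 of 33 other targets and 0 of 8 partners and competitors. They were 2 of 18 for NRF2 protein turnover, 1 of 19 for the peroxiredoxin and thioredoxin list and 1 of 16 iron genes. Of the heme genes they were 3 of 18, of the autophagy genes 4 of 15 and of the other antioxidant enzymes 3 of 19. Counts of lower genes were 1 iron gene and 1 other antioxidant enzyme, beside 2252 higher and 1717 lower of all 16870 compared genes. The members' count past 2-fold was 3 under every scaling and pseudocount tried. The filters could not change it, since each member had at least 1402 reads in both libraries together. Beside such reads a pseudocount of 5 is small. Of the 7 compared miRNAs 1 was 2-fold higher on the TMM scale, 7 by library total and 0 with 5 reads added, where miR-142a-5p was at 0.31. Depth limits Nqo1 most among the members, and the missing replicates limit every ratio.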
